A study of Mus musculus with 6 samples.

Results

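The insulin receptor and the phosphoinositide 3-kinase (PI3K) and AKT kinases that carry its signal were examined in liver tumors of WT and Nr2e3-/- mice. The 9 genes were chosen by name, as the core of the pathway: Insr, Irs1, Irs2, Pik3ca, Pik3r1, Akt1, Akt2, Foxo1 and Mtor. They are 9 of the 24063 genes of the count table, and all 9 were among the 13572 genes that passed the filter on low counts. The RNA came from liver tumors of male C57BL/6 mice, 3 libraries labelled NR2E3+/+ (WT) and 3 labelled NR2E3-/-. All animals of the tumor model had been injected with diethylnitrosamine (DEN), a liver carcinogen, at 25 mg per kg and 15 days of age, and the tumors belong to the 24-week time point. The WT mice were C57BL/6J, while how the knockout line was made is not given in the sources used here. The study's methods give the samples as tumors of 3 mice per genotype, which the labels do not repeat.

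Insulin binding activates the tyrosine kinase of its receptor, which phosphorylates the IRS adaptors, and these recruit PI3K, a dimer of a regulatory and a catalytic subunit. The lipid made by PI3K brings AKT kinases to the membrane, where they are activated. In hepatocytes active AKT keeps the transcription factor FOXO1 out of the nucleus, which lowers glucose production, and it also activates the kinase mTOR, which promotes protein and lipid synthesis. Irs2 is a FOXO1 target and its transcript is known to fall after insulin, so the pathway acts back on its own adaptor.

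The promoters of Irs1 and Irs2 are shown because both adaptor genes hold the letters of the insulin response element there, and the fold changes of their RNA had opposite signs. Printed are the 250 bases before the RefSeq start of each gene (GRCm38), 5′ to 3′ on the gene's strand. Irs1 is at chr1:82291440-82291689 and Irs2 at chr8:11008930-11009179, both on the minus strand. Capitals mark the E-box CACGTG and the core of the insulin response element, CAAAACA, here read on the opposite strand as TGTTTTG.
Irs1: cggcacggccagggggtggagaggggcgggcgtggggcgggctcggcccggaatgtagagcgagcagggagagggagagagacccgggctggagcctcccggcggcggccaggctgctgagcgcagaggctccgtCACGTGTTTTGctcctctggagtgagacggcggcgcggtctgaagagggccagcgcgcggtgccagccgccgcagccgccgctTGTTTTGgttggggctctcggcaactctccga
Irs2: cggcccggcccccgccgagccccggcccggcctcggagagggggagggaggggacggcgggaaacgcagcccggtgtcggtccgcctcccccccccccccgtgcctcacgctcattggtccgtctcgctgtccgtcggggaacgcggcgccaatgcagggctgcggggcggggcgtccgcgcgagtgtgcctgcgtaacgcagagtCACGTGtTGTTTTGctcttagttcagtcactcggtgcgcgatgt
The element CAAAACA was searched on both strands, as was the E-box. Irs1 held 2 copies of the element, whose first bases lie 111 and 32 bases before the start, and Irs2 held 1, at 37 bases. The E-box began 115 bases before the start in Irs1, where it shares letters with an insulin response element, and 44 bases before it in Irs2, where it does not. Of 32851 promoter windows of the same length, 5.56% held the element, 6.02% held the E-box and 0.295% held both. Among the 10177 tested genes with a window, the shares were 4.82%, 9.79% and 0.344%. Of the 8 members with a window, Irs1 and Irs2 were those with either motif. The GC box GGGCGG was in a window of all 8 and in 61.6% of tested genes, and the FOXO motif GTAAACA was in Akt1 and in 2.86% of tested genes. A match to these letters is a description and does not mark a bound site.

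Total counts were between 15376261 and 28690279 per library, and levels are given as CPM, the counts scaled to a common library total, after TMM scaling between libraries. Nr2e3 had 0 counts in all 6 libraries, which allows up to 0.105 to 0.195 CPM at 3 counts, so its own RNA could not check the genotype. The library Nr2e3-/- replicate 1 stood apart from the others of its group. Its root-mean-square log2 difference over 13572 genes averaged 0.544 to the WT libraries and 0.715 to the other Nr2e3-/- libraries. WT libraries differed from each other by 0.392 to 0.421, and Nr2e3-/- replicates 2 and 3 by 0.546. Replicate 1 of the Nr2e3-/- group also had the fewest counts, 15376261. Member results are given with and without it, as are those of other named genes whose call rests on it. Hepatocyte markers summed to between 113186 and 154540 CPM in every library, of which albumin alone gave 84013 to 130236. Of 8 hepatocyte markers, 3 were higher and 0 lower at an unadjusted p of 0.05 in edgeR, beside 11.8% and 9.72% of genes. The pancreas acinar markers were near 0. In bulk tissue, fewer cells of a type and less RNA per cell cannot be told apart.

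Insr, the receptor itself, was lower in Nr2e3-/- tumors. It is at chr8:3150922-3279649 on the minus strand and had 2346 to 6198 counts per library. In WT tumors Insr was at 218, 204 and 215 CPM in replicates 1, 2 and 3, and in Nr2e3-/- tumors at 155, 158 and 144 CPM. Every Nr2e3-/- library lay below every WT library, and replicate 1 sat among the others here. The means were 212 ± 7.19 and 152 ± 7.65 CPM (SD, n = 3 each), a difference of -28.2%. The log2 fold change of -0.48 (SE 0.10) had an unadjusted p of 0.0017 and an adjusted p of 0.0963 in edgeR's quasi-likelihood test over all genes tested. Without Nr2e3-/- replicate 1 the log2 fold change was -0.48 with an adjusted p of 0.0227 in edgeR, and the adjusted p was 0.00064 in DESeq2 with all libraries. Under all 13 alternatives the log2 fold change stayed between -0.56 and -0.43. The adjusted p was under 0.05 in 3 of these 13 and reached 0.340 in another.

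The log2 fold changes of the adaptors had opposite signs, negative for Irs1 and positive for Irs2, and neither passed the test. Irs1 (chr1:82233105-82291439, minus strand) was at 23.3, 25.4 and 31.2 CPM in WT tumors. The Nr2e3-/- tumors had 25.4, 9.69 and 11.1 CPM. Replicate 1 lay within the WT range and replicates 2 and 3 below it. The log2 fold change was -0.80 (SE 0.36), with an adjusted p of 0.251 in edgeR. Without replicate 1 it was -1.35, with an adjusted p of 0.0046, and 2 of the 13 alternatives gave one under 0.05. Exons of Irs1 share 2822 bases with Gm9747 on the opposite strand, a name that is not among the genes counted. The strand setting of the counting is not stated, so reads from the pair cannot be told apart.

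Irs2 (chr8:10984681-11008929, minus strand) had 73 to 626 counts per library. The WT libraries had 2.80, 4.03 and 10.5 CPM and the Nr2e3-/- libraries 7.55, 23.2 and 11.8 CPM. Here WT replicate 3 stood above the other WT libraries, and Nr2e3-/- replicate 1 lay below it, so the groups overlapped. The means of 5.78 ± 4.14 and 14.2 ± 8.11 CPM gave a log2 fold change of 1.31 (SE 0.57) and an adjusted p of 0.242 in edgeR. This value rested on single libraries, since it was 0.75 without Nr2e3-/- replicate 2 and 2.06 without WT replicate 3. Without Nr2e3-/- replicate 1 it was 1.61, with an adjusted p of 0.0822 in edgeR. Irs2 shares 162 exon bases with 9530052E02Rik on the opposite strand, whose counts were 3, 4 and 11 in WT and 7, 30 and 6 in Nr2e3-/- libraries. These are small beside those of Irs2.

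**Figure D1:**
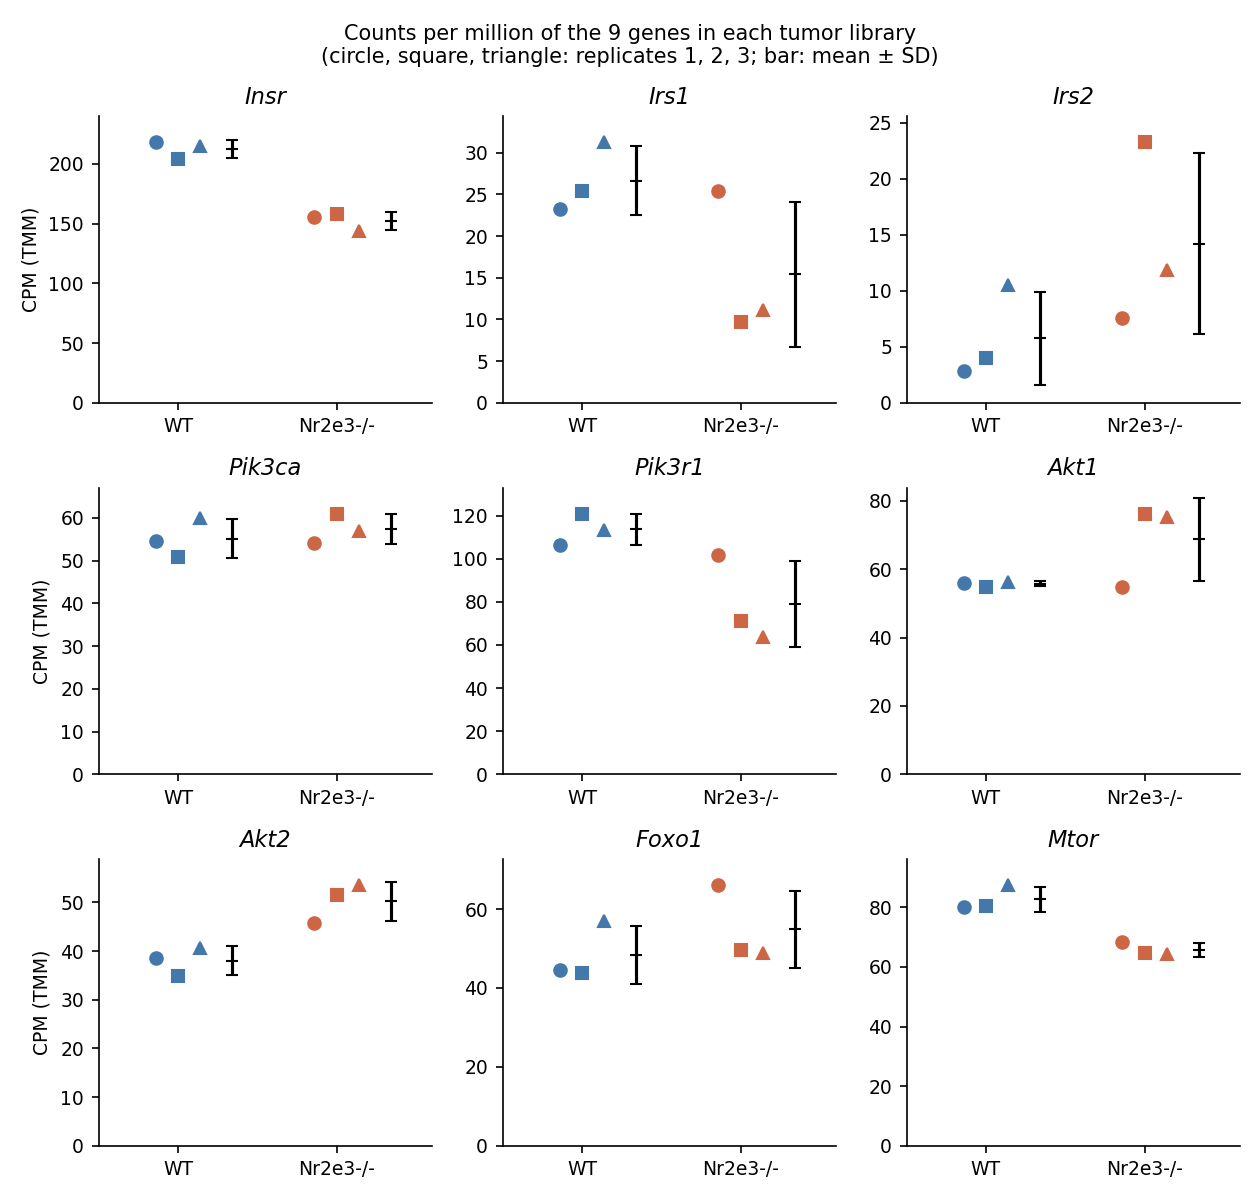
TMM-scaled CPM (vertical axis of each panel) of the 9 genes in the 3 WT and 3 Nr2e3-/- libraries, with circle, square and triangle for replicates 1, 2 and 3 and a bar for the mean ± SD. Insr, Pik3r1 and Mtor lie lower and Akt2 higher in every Nr2e3-/- library than in every WT library, while Nr2e3-/- replicate 1 lies within or beside the WT points for Irs1 and Akt1.

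Of the PI3K subunit genes, Pik3r1, which encodes the regulatory subunits that bind IRS proteins, was lower in every Nr2e3-/- library. For Pik3ca, which encodes a catalytic subunit, no difference was detected. Pik3r1 (chr13:101680761-101768217, minus strand) was at 106, 121 and 113 CPM in WT and at 102, 71.3 and 63.9 CPM in Nr2e3-/- tumors. The groups did not overlap, but Nr2e3-/- replicate 1 lay close to the lowest WT library. The difference of -30.5% had a log2 fold change of -0.53 (SE 0.18), an unadjusted p of 0.0219 and an adjusted p of 0.172 in edgeR. Without replicate 1 the log2 fold change was -0.74 and the adjusted p 0.0079, which was under 0.05 in 2 of the 13 alternatives.

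Pik3ca (chr3:32397065-32466112, plus strand) was at 54.6, 50.9 and 59.9 CPM in WT and at 54.0, 61.0 and 56.9 CPM in Nr2e3-/- tumors. These ranges overlapped. Its log2 fold change was 0.06 (SE 0.11) with an adjusted p of 0.778 in edgeR, and it turned to -0.03 under upper quartile normalization. Without replicate 1 it was 0.11, with an adjusted p of 0.495.

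Of the AKT kinases, Akt2 was higher in every Nr2e3-/- tumor. AKT2 is the isoform most tied to insulin's metabolic action. Akt2 (chr7:27591552-27640826, plus strand) was at 38.6, 34.8 and 40.6 CPM in WT and at 45.8, 51.4 and 53.5 CPM in Nr2e3-/- tumors. No library of one group reached into the other, with Nr2e3-/- replicate 1 nearest to WT. The means differed by 32.3%, with a log2 fold change of 0.40 (SE 0.11), an unadjusted p of 0.00783 and an adjusted p of 0.13 in edgeR. DESeq2 gave an adjusted p of 0.0484, and edgeR without Nr2e3-/- replicate 1 gave 0.0215 at a log2 fold change of 0.47. Of the 13 alternatives 3 gave an adjusted p under 0.05, and the highest was 0.380.

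Akt1, the isoform most tied to growth and survival, is at chr12:112653821-112674884 on the minus strand. It was at 56.0, 54.9 and 56.3 CPM in WT and at 54.8, 76.2 and 75.2 CPM in Nr2e3-/- tumors. The WT libraries were nearly equal, replicate 1 of the Nr2e3-/- group matched them, and the other Nr2e3-/- libraries lay well above. With all libraries the log2 fold change was 0.30 (SE 0.14) and the adjusted p 0.265 in edgeR. Without replicate 1 these became 0.45 and 0.0149, and the adjusted p was under 0.05 in 2 of the 13 alternatives.

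Foxo1, the transcription factor that AKT holds in check, showed no difference that passed the test. It is at chr3:52268337-52350109 on the plus strand, and its exons share 674 bases with Gm20402, a name that is not among the genes counted. WT tumors had 44.5, 43.8 and 56.9 CPM and Nr2e3-/- tumors 66.1, 49.6 and 48.8 CPM. Here Nr2e3-/- replicate 1 was the highest of the 6 libraries, and the others of its group lay inside the WT range. The log2 fold change was 0.18 (SE 0.17) with an adjusted p of 0.546 in edgeR, and 0.03 with 0.884 without replicate 1.

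Mtor, the kinase of both mTOR complexes, is at chr4:148448582-148557685 on the plus strand. It was at 80.0, 80.5 and 87.5 CPM in WT and at 68.4, 64.5 and 64.4 CPM in Nr2e3-/- tumors. The groups did not overlap, and the Nr2e3-/- libraries lay close together, replicate 1 included. The difference of -20.5% had a log2 fold change of -0.33 (SE 0.09), an unadjusted p of 0.0093 and an adjusted p of 0.134 in edgeR. Without replicate 1 the adjusted p was 0.0409 at a log2 fold change of -0.35, and 2 of the 13 alternatives gave one under 0.05.

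Counted over the 9 genes, none passed an adjusted p of 0.05 in edgeR, where 13 of all genes tested did (0.0958%). At an unadjusted p of 0.05, 4 of 9 passed, against 21.5% of all genes tested. Akt2 was higher, against 11.8% of genes, and Insr, Pik3r1 and Mtor were lower, against 9.72%. These 4 genes were also those whose groups did not overlap, which held for 26.8% of genes (13.9% higher and 12.9% lower). With adjusted p-values, DESeq2 passed 2 of the 9 (Insr and Akt2) where it passed 8.0% of 13701 genes, and limma-voom passed 6 where it passed 17.4% (at an unadjusted p of 0.05, 7 against 36.7%). Without Nr2e3-/- replicate 1, edgeR also passed 6 (Insr, Irs1, Pik3r1 and Mtor lower, Akt1 and Akt2 higher), where 21.8% of genes passed, 12.2% higher and 9.65% lower. At an unadjusted p of 0.05, 7 of the 9 passed without that library, against 37.7% of genes. In that setting 7 of the 9 did not overlap, against 55.2% of genes. The median log2 fold change of the 9 was 0.06, beside 0.0073 for all genes tested. A plain exact permutation test of 3 libraries against 3 cannot give a p below 0.1.

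**Figure D2:**
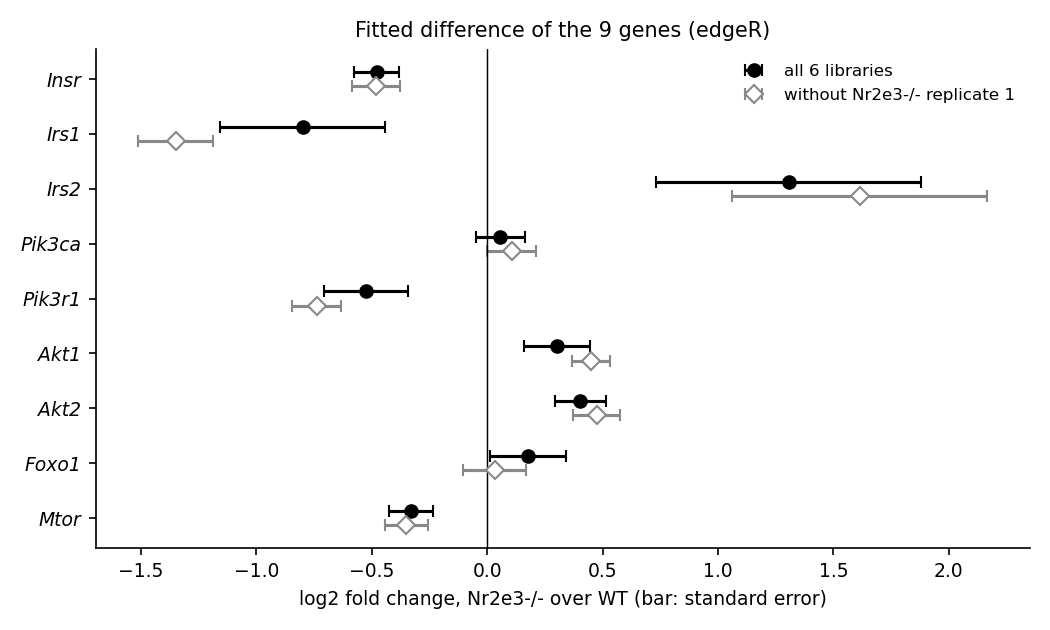
Log2 fold change of Nr2e3-/- over WT (horizontal axis) of each gene with its SE, with all 6 libraries and without Nr2e3-/- replicate 1. Insr, Irs1, Pik3r1 and Mtor lie below 0, Irs2, Akt1 and Akt2 above it, and Irs1 moves the most, from -0.80 to -1.35.

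Ratios of related genes within a library do not depend on scaling between libraries, and 3 were tested. The ratio of Irs2 to Irs1 counts was 0.120, 0.158 and 0.336 in WT and 0.297, 2.40 and 1.06 in Nr2e3-/- tumors. For the log2 ratios, 0.5 was added to each count. Irs1 had more counts than Irs2 in the WT libraries and in Nr2e3-/- replicate 1, and fewer in replicates 2 and 3. The mean log2 ratios of -2.42 ± 0.76 and -0.13 ± 1.52 (SD, n = 3) differed by 2.29, with an exact two-sided permutation p of 0.2 (0.3 after Benjamini-Hochberg adjustment over the 3 ratios). The ratio of Pik3r1 to Pik3ca was 1.95, 2.37 and 1.90 in WT and 1.88, 1.17 and 1.12 in Nr2e3-/- tumors. The groups met without overlapping, and the difference of -0.61 in mean log2 ratio had the smallest exact permutation p possible, 0.1 (0.3 adjusted). The ratio of Akt2 to Akt1 was 0.689, 0.633 and 0.722 in WT and 0.836, 0.675 and 0.712 in Nr2e3-/- tumors. These groups overlapped, with a difference of 0.12 in mean log2 ratio and an exact permutation p of 0.5.

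**Figure D3:**
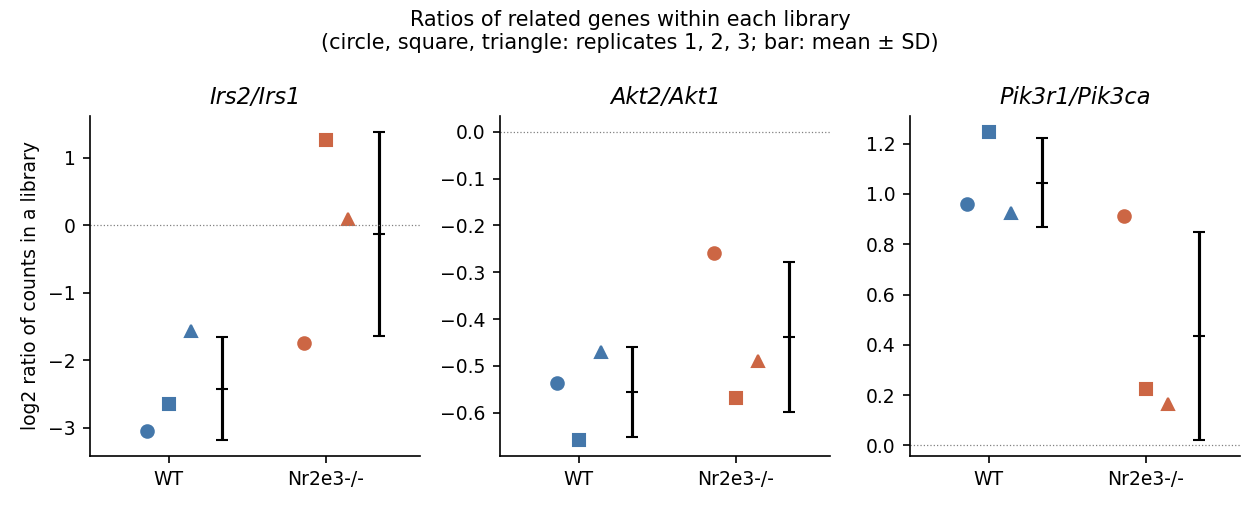
Log2 ratio of the counts of 2 related genes within each library (vertical axis, different in each panel), with circle, square and triangle for replicates 1, 2 and 3 and a bar for the mean ± SD. The Irs2 to Irs1 ratio lies above 0 in Nr2e3-/- replicates 2 and 3 alone, and the Akt2 to Akt1 ratios of the groups overlap.

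Levels were compared between genes as CPM per kilobase of exon. In WT tumors Insr was the highest of the 9 at 15.4 ± 0.523 CPM per kb (SD, n = 3), followed by Akt1 at 13.6 ± 0.18, Pik3r1 at 11.3 ± 0.716 and Mtor at 8.18 ± 0.412. Then came Pik3ca at 6.07 ± 0.494, Foxo1 at 5.59 ± 0.852 and Akt2 at 5.33 ± 0.417 CPM per kb. Pik3ca and Foxo1 overlapped, as did Foxo1 and Akt2, so the order among these neighbours was not resolved. Irs1 at 2.91 ± 0.451 and Irs2 at 0.914 ± 0.655 CPM per kb were the lowest, and the libraries of these neighbours did not overlap. In Nr2e3-/- tumors Akt1 led with 16.8 ± 2.94, followed by Insr at 11.1 ± 0.557 and Pik3r1 at 7.84 ± 1.99 CPM per kb. Their libraries did not overlap from Akt1 to Insr or from Insr to Pik3r1. From Pik3r1 through Akt2, Mtor and Foxo1 to Pik3ca, each gene overlapped the next in the order, while Pik3ca and Irs2 did not overlap. Irs2 at 2.25 ± 1.28 and Irs1 at 1.69 ± 0.951 CPM per kb overlapped. Exon lengths came from GENCODE M21, which may differ from the annotation the reads were counted on.

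**Figure D4:**
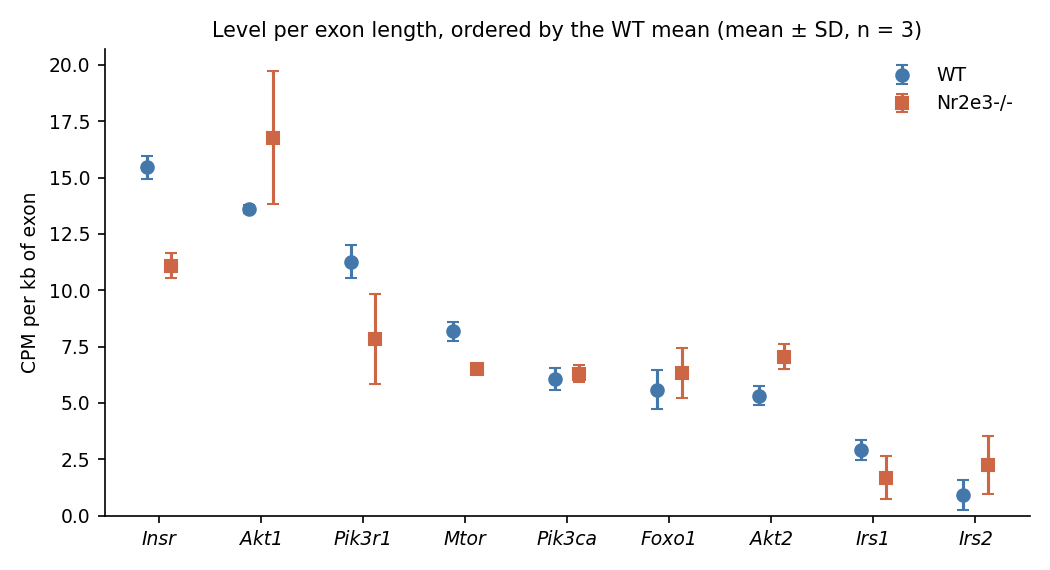
TMM-scaled CPM per kilobase of exon (vertical axis) of the 9 genes, ordered by the WT mean, as mean ± SD of 3 libraries for WT (circles) and Nr2e3-/- (squares). Insr is the highest gene in WT and Akt1 in Nr2e3-/- tumors, and Irs1 and Irs2 are the lowest in both.

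The pathway around the 9 genes was read from 7 lists with 128 genes, of which 124 were tested. In edgeR none passed an adjusted p of 0.05, while 33 (26.6%) passed an unadjusted p of 0.05, 16 higher and 17 lower, beside the 21.5% of all genes tested. Without Nr2e3-/- replicate 1, 26 of the 124 (21.0%) passed the adjusted test in edgeR, a share near the 21.8% of all genes. Among other receptors and adaptors, 1 of 12 tested genes was higher and 2 were lower at an unadjusted p of 0.05. The higher gene was Grb2, an adaptor to the RAS pathway (log2 fold change 0.50, adjusted p 0.111 in edgeR, and 0.59 with 0.0127 without replicate 1). The IGF1 receptor gene Igf1r, the closest relative of Insr, had a log2 fold change of -0.11 and did not pass. In the PI3K family 1 of 14 was higher and 2 were lower (21.4%, near the 21.5% of all genes tested). Pik3r2, a second regulatory subunit gene, had a mean of 21.6 ± 0.768 CPM in WT and 15.2 ± 2.07 in Nr2e3-/- tumors, lower like Pik3r1 (log2 fold change -0.51, adjusted p 0.124 in edgeR, and -0.59 with 0.0195 without replicate 1).

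Of 22 genes that brake the receptor or PI3K, 3 were higher and 6 lower at an unadjusted p of 0.05 in edgeR (40.9%, beside 21.5% of all genes tested). Ptpn1, a phosphatase that removes phosphate from the insulin receptor, was at 36.7, 36.6 and 30.6 CPM in WT and at 38.7, 143 and 130 CPM in Nr2e3-/- tumors. Replicate 1 was just above the WT libraries, and replicates 2 and 3 far above. The log2 fold change was 1.59, with an adjusted p of 0.13 in edgeR, and without replicate 1 it was 1.99, with an adjusted p of 0.00117. Socs3, an inhibitor of cytokine and insulin receptor signaling that was chosen after its values were seen, was at 11.7, 9.85 and 10.6 CPM in WT and at 5.30, 96.5 and 54.0 CPM in Nr2e3-/- tumors. It was below WT in replicate 1 and above it in the others, and its adjusted p in edgeR was 0.18 with replicate 1 and 0.00193 without. The phosphoinositide phosphatase gene Inpp4a averaged 32.2 ± 3.20 CPM in WT and 16.2 ± 6.17 in Nr2e3-/- tumors, a difference of -50.1% (adjusted p 0.118 in edgeR, and 0.00231 without replicate 1). Inpp4b, Trib3, Inpp5k, Enpp1 and Phlpp1 were also lower at an unadjusted p of 0.05 with all libraries, and Ptpn2 was higher. Without replicate 1, 4 brakes rose and 5 fell at an adjusted p of 0.05 in edgeR, beside 12.2% and 9.65% of all genes.

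Among AKT kinases and substrates, 2 of 16 tested genes were higher and 3 lower at an unadjusted p of 0.05. That is 31.25%, beside 21.5% of all genes tested. Without Nr2e3-/- replicate 1, 2 of the 16 passed an adjusted p of 0.05 in edgeR, beside 21.8% of all genes. Gys2, the liver glycogen synthase, had a log2 fold change of -0.49 (adjusted p 0.133 in edgeR). Pfkfb2, an enzyme that controls glycolysis and is an AKT substrate, averaged 62.3 ± 6.03 CPM in WT and 87.1 ± 13.7 in Nr2e3-/- tumors (log2 fold change 0.48, adjusted p 0.143), and the groups did not overlap. Among mTOR complexes and regulators 5 of 28 were higher and 1 lower (21.4%, near the 21.5% of all genes tested), and their median log2 fold change was 0.02. Eif4e, the cap-binding protein that acts downstream of mTOR, had a log2 fold change of 0.82 (adjusted p 0.109 in edgeR), and of 1.01 (0.0041) without replicate 1. For Rheb, the direct activator of mTOR, it was 0.45 (adjusted p 0.127), and 0.55 (0.0131) without replicate 1. Also higher at an unadjusted p of 0.05 were Sesn2 (0.47, adjusted p 0.165 in edgeR), Eif4ebp1 (0.57, 0.206) and Ddit4 (0.79, 0.17). The lower gene was Tsc1 (-0.41, 0.184). Without replicate 1, Sesn2 was at 0.56 (0.0397), Eif4ebp1 at 0.80 (0.0046) and Tsc1 at -0.53 (0.0326), and Ddit4 did not pass. The complex-defining genes Rptor (0.08) and Rictor (0.06) had small log2 fold changes, which were -0.0024 and -0.03 under upper quartile normalization.

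Of 20 FOXO1 target genes 4 were higher and 2 lower at an unadjusted p of 0.05. That is 30.0%, beside 21.5% of all genes tested. Without Nr2e3-/- replicate 1, 1 of the 20 passed an adjusted p of 0.05 in edgeR, beside 21.8% of all genes. The gluconeogenic genes G6pc, with a log2 fold change of 0.18, and Pck1, with 0.40, did not pass, nor did Igfbp1, with 0.07. G6pc and Igfbp1 changed sign among the alternatives. Tat, an amino acid degrading enzyme that is also a hepatocyte marker, was at 755, 570 and 726 CPM in WT and at 2451, 874 and 1736 CPM in Nr2e3-/- tumors (log2 fold change 1.30, adjusted p 0.127 in edgeR). For Tat the Nr2e3-/- library furthest from WT was replicate 1. The other higher genes were Cited2 (0.62, adjusted p 0.133 in edgeR), Apoc3 (0.33, 0.185) and Bcl6 (2.01, 0.15), whose groups overlapped for Bcl6. Ppargc1a (-0.71, 0.216) and Gadd45a (-0.55, 0.213) were lower. Without replicate 1, Cited2 passed, with a log2 fold change of 0.43 and an adjusted p of 0.0417 in edgeR.

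Of 12 lipogenic genes that insulin induces, 8.33% passed an unadjusted p of 0.05 in edgeR, beside 21.5% of all genes tested. None was higher and 1 was lower. That gene was Srebf1, the transcription factor of lipid synthesis, at 383, 312 and 279 CPM in WT and at 265, 113 and 65.3 CPM in Nr2e3-/- tumors (log2 fold change -1.14, adjusted p 0.219). Replicate 1 was the nearest to WT, and without it the log2 fold change was -1.85 (adjusted p 0.00778 in edgeR). In that setting 4 genes of this list fell at an adjusted p of 0.05 in edgeR, beside 9.65% of all genes tested. Among them were Srebf1, Insig1 and Mlxipl, with Insig1 and Mlxipl named here after their values were seen.

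**Figure D5:**
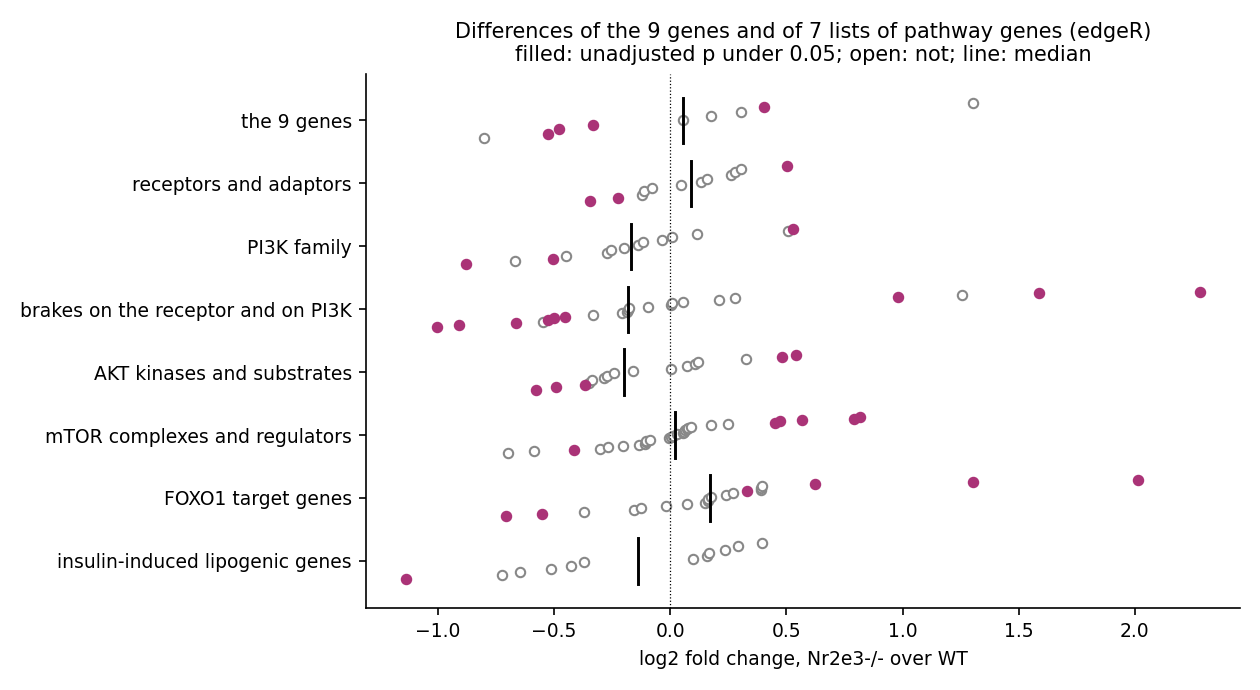
Log2 fold changes of Nr2e3-/- over WT (horizontal axis) of the 9 genes and of the tested genes of each pathway list, filled where the unadjusted p is under 0.05, with a line at each median. The brakes have 9 of 22 genes at an unadjusted p of 0.05, and the lipogenic genes 1 of 12, beside 21.5% of all genes.

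Markers of other cells also differed between the libraries that set these values. Neutrophil markers summed to between 3.47 and 5.85 CPM in WT and to 3.05, 24.1 and 15.5 CPM in Nr2e3-/- replicates 1, 2 and 3, with 3 of 4 tested genes higher at an unadjusted p of 0.05. Over all genes tested, 11.8% were higher and 9.72% lower at that p in edgeR. Bile duct markers summed to between 57.3 and 119 CPM in WT and to 69.1, 429 and 185 CPM in Nr2e3-/- tumors, with 2 of 5 tested genes higher. Stellate cell markers summed to between 234 and 252 CPM in WT and to 264, 159 and 154 CPM in Nr2e3-/- tumors, with 0 of 7 genes at an unadjusted p of 0.05 in edgeR. Replicates 2 and 3 of the Nr2e3-/- group were the libraries furthest from WT, on the same side, in these 3 sums and in that of hepatocyte markers. Kupffer cell markers summed to 194, 451 and 240 CPM in Nr2e3-/- tumors, beside 207 to 272 in WT, also with 0 of 7. Red cell markers summed to between 142 and 202 CPM in WT and to 244, 322 and 229 CPM in Nr2e3-/- tumors, with 1 of 5 genes higher. Other lists did not place replicates 2 and 3 together in this way. Lymphocyte and dividing cell sums lay above WT in Nr2e3-/- replicate 2 and below it in replicates 1 and 3. Of 8 lymphocyte genes, 3 were lower at an unadjusted p of 0.05 in edgeR. Adipocyte sums lay below WT in replicate 1, the furthest library, and above it in replicates 2 and 3. Endothelial sums lay below WT in replicate 3 alone. The part of these cells in the results was not tested for any of the 9 genes.

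The genes whose pattern over the 6 libraries was most like that of each member were found by the mean absolute difference of z-scored log2 CPM, where 0 is an identical pattern. For Insr they were Rnf39 (0.0401), Ovgp1 (0.052) and Rabgap1 (0.0697). For Irs1 they were Olfr1033 (0.0227), Bckdhb (0.0291) and Efemp1 (0.032). For Irs2 they were Glrx3 (0.122), Igbp1 (0.142) and Slc38a2 (0.146), a weaker likeness. The nearest genes were Gng11 for Pik3r1, Cbll1 for Akt1, Slc25a51 for Akt2, Kat2b for Mtor and Chchd7 for Foxo1. These come from 6 libraries and 13572 genes and were not tested.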

How the data were processed

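RNA-seq was done on liver tumors of WT and Nr2e3-/- mice, 3 libraries each, grouped by the genotype in their labels. The authors aligned single-end reads to mm10 with TopHat, counted them per gene with featureCounts and deposited raw counts. Tool versions and the strand setting are not given in the sources used here. The authors also deposited a normalized copy of the counts and a table of their own fold changes and p-values, and neither was used.

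Counts were filtered with filterByExpr (minimum count 10, minimum total 15), scaled by TMM and tested with the two-sided quasi-likelihood test of edgeR 4.0.16 in R 4.3.3, with genotype as the one term and Benjamini-Hochberg adjustment over all genes tested. Log2 CPM used a prior count of 2. Alternatives were RLE and upper quartile scaling, DESeq2 1.42.0 and limma-voom (limma 3.58.1, with quality weights per sample) as other tests. Also tried were a looser filter (1 or more counts in total) and a stricter one (10 or more counts in each library). A block for the replicate number and leaving out each library were tried as well. The count of non-overlapping genes without each library was added after seeing the data. The scripts were tested on simulated data.

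Depth was 15376261 to 28690279 counts per library, and limits for a count of 0 cover counting error only. Members and gene lists were chosen with earlier results of these data known, and the lists were written from memory. The text names the members, a few fixed genes, and up to 3 genes most alike in pattern per member. Candidates from each list had an unadjusted p under 0.05 and non-overlapping groups, at most 4 per direction with the largest fold change. Some of these candidates, not all, are named. Other list genes, such as Socs3, Eif4ebp1 and Bcl6, were named after their values were seen. Positions and promoters are from RefSeq (GRCm38) and exon lengths from GENCODE M21. Summaries used Python 3.11.15 with pandas 2.3.3, and plots matplotlib 3.10.9. The values of a few genes that entered the fits and list counts are not reported here.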

Additional observations from a re-analysis of the deposited data

How the results depend on the processing

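The direction of 8 of the 9 members held in all 13 alternatives, and that of Pik3ca turned to -0.030 (log2) under upper quartile scaling. Members passing the adjusted test in edgeR, 0 with all libraries, were 2 with DESeq2, 6 with limma-voom and 0 to 6 when 1 library was left out. At an unadjusted p of 0.05 they were 4, with 7 by limma-voom and 3 to 7 when 1 library was left out. The highest values came without Nr2e3-/- replicate 1. Members whose groups did not overlap were 4, and 4 to 7 when 1 library was left out. Over all genes, 13 passed the adjusted test, with 8 under upper quartile scaling, 1096 by DESeq2, 2360 by limma-voom, 70 with no filter, 7 with at least 10 counts in every library and 0 to 3022 when 1 library was left out. The 2916 genes at an unadjusted p of 0.05 became 4981 by limma-voom and 1693 to 5220 when 1 library was left out, and the 33 genes of the pathway lists became 19 to 48. The cause of these changes was not tested.

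Other genes changed sign on the log2 scale. Under upper quartile scaling Pdpk1 at -0.084, Rictor at -0.029, Rptor at -0.0024 and Igfbp1 at -0.0052. Pdpk1 was at -0.014 with at least 10 counts, and by limma-voom Igfbp1 was at -0.12 and G6pc at -0.060. When 1 library was left out, Igf1r ranged from -0.31 to 0.035, Pdpk1 from -0.084 to 0.067, Rictor from -0.21 to 0.29, Rptor from -0.0067 to 0.14, Igfbp1 from -0.13 to 0.39 and G6pc from -0.50 to 0.58.

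The replicate numbers did not pair the samples. Deviations of same-numbered libraries from their group means correlated at -0.0766, 0.221 and 0.0234 for numbers 1, 2 and 3. With the number as a replicate block, 0 genes passed the adjusted test (2438, or 18.0%, at an unadjusted p of 0.05), and of the members 0 passed it and 6 had an unadjusted p of 0.05 in edgeR.

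With 3 libraries per group, counts of calls depended on the test and on which libraries were included. Irs2, at 73 to 626 counts, was the member with the fewest counts.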
